A study of Mus musculus with 6 samples.

Results

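The outer layers of the epidermis hold water by means of sheets of lipid between dead, flattened cells, and 10 genes that build these lipids were examined: Elovl4, Cyp4f39, Cers3, Pnpla1, Ugcg, Abca12, Alox12b, Aloxe3, Sdr9c7 and Lipm. They were chosen by name, as enzymes and a transporter of the acylceramide route, and each matched 1 gene of the 54532 in the count table. Of the 10, 8 had enough reads to be tested along with 13157 genes in all, and Cyp4f39 and Sdr9c7 were below that limit.

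The libraries came from the dorsal skin epidermis of 4-week-old C57BL/6 mice of both sexes, with no transgene or treatment named in either group. In 3 NCAM-enriched libraries, cells carrying NCAM, a cell adhesion molecule on the surface of Merkel cells (the touch-sensing neuroendocrine cells of the epidermis), were drawn out with antibody-coated beads and then sorted as NCAM-positive and DAPI-negative, that is, with an intact membrane. In 3 bulk skin libraries, DAPI-negative epidermal cells were sorted without selection for NCAM, so they can hold Merkel cells too. Each library was made from 500 sorted events by Smart-seq2, which copies whole messenger RNAs from few cells. Levels are in CPM (counts scaled by the size of each library), so that libraries of different depth can be set side by side.

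Barrier lipids are made by keratinocytes as they leave the basal layer and pass through the spinous and granular layers. Very long fatty acids are lengthened, hydroxylated at their far end, joined to a sphingoid base to make a ceramide, and capped with linoleic acid. The acylceramides are glucosylated, loaded into lamellar bodies and secreted, and lipoxygenases and a dehydrogenase then oxidise their linoleate so that the lipid can be attached to the protein envelope of the cell. Mutations in several of these genes cause ichthyosis, a scaling of the skin.

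In 4 of the 10 genes, all among the 8 tested, every NCAM-enriched library was above every bulk skin library, as in 11.1% of all genes tested, and the bases upstream of their start sites are shown so that they can be read beside the values. Each run is the 250 bases before the RefSeq start in GRCm38.p6, written 5′ to 3′ on the gene's strand, with CG dinucleotides in capitals. The windows are chr9:83806306-83806555 (minus strand) for Elovl4, chr7:66743254-66743503 (plus) for Cers3, chr17:28858161-28858410 (plus) for Pnpla1 and chr1:71414911-71415160 (minus) for Abca12.
Elovl4: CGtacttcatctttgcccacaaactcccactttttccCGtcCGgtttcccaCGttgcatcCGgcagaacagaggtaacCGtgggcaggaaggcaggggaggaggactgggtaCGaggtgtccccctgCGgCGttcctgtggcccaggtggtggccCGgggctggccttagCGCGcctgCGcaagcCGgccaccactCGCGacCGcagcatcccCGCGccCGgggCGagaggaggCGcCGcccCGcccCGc
Cers3: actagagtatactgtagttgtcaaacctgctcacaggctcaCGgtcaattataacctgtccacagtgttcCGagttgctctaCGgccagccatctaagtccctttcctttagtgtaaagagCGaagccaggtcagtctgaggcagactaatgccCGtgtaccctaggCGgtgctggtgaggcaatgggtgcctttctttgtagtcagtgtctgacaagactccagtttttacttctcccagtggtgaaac
Pnpla1: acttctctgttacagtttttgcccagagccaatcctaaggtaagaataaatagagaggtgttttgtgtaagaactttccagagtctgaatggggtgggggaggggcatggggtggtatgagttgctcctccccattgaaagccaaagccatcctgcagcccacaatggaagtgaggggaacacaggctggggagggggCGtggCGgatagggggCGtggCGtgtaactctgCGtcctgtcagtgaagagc
Abca12: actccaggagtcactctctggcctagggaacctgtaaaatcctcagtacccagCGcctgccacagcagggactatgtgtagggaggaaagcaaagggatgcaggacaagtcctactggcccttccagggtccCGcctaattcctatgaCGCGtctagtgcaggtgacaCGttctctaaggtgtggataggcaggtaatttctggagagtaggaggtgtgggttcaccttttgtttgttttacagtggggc
The Elovl4 window had 25 CG dinucleotides and 69.6% G or C, and 89.3% of 32851 mouse windows of this length held fewer CG. The other 3 were close to the median of 6, with 6 in Cers3, 5 in Pnpla1 and 5 in Abca12. RefSeq windows were found for 9 of the 10 genes, Aloxe3 being the one without. Of these, Ugcg was the richest, with 43 CG dinucleotides, but its window lay within the gene as GENCODE draws it.

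A few short motifs were searched for on both strands, and none was in more than 5 of these 9 windows. The grainyhead motif AACCNGTT and the AP-1 motif TGANTCA were in 0 of the 9 windows, against 1.79% and 6.75% of all windows. The CACCC box bound by Krüppel-like factors was in 5 of 9 (Cers3, Pnpla1, Ugcg, Alox12b and Sdr9c7), and 52% of all windows hold it. CCAAT was in 2 (Pnpla1 and Lipm; 33.8% of all windows) and TATAAA in 1 (Sdr9c7; 12.4%). No match shared bases with a match of another motif in these windows.

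Of the 8 genes tested, 2 were higher in the NCAM-enriched libraries and 0 were lower at an adjusted p of at most 0.05 (edgeR, quasi-likelihood test, Benjamini-Hochberg over all genes). They were Elovl4, at the start of the route, and Abca12, which loads the lipid for secretion. Over all genes tested, 1.04% were called higher and 1.55% lower. The fold changes of 7 of the 8 were above 0, with a median log2 value of 2.70, against -0.07 over all genes. At an unadjusted p under 0.05 the quasi-likelihood test of edgeR had 5 of the 8 higher and 0 lower, where 8.73% of all genes were higher at that threshold, and DESeq2 and limma-voom called 0 lower. With bulk skin replicate 1, 2 or 3 left out edgeR called 0, 0 and 1 of all genes higher and 13, 21 and 16 lower. Nearly all higher calls were lost in these fits, those of the members among them. In libraries of this kind, a larger share of cells of a type and more RNA per cell of that type cannot be told apart.

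**Figure D1:**
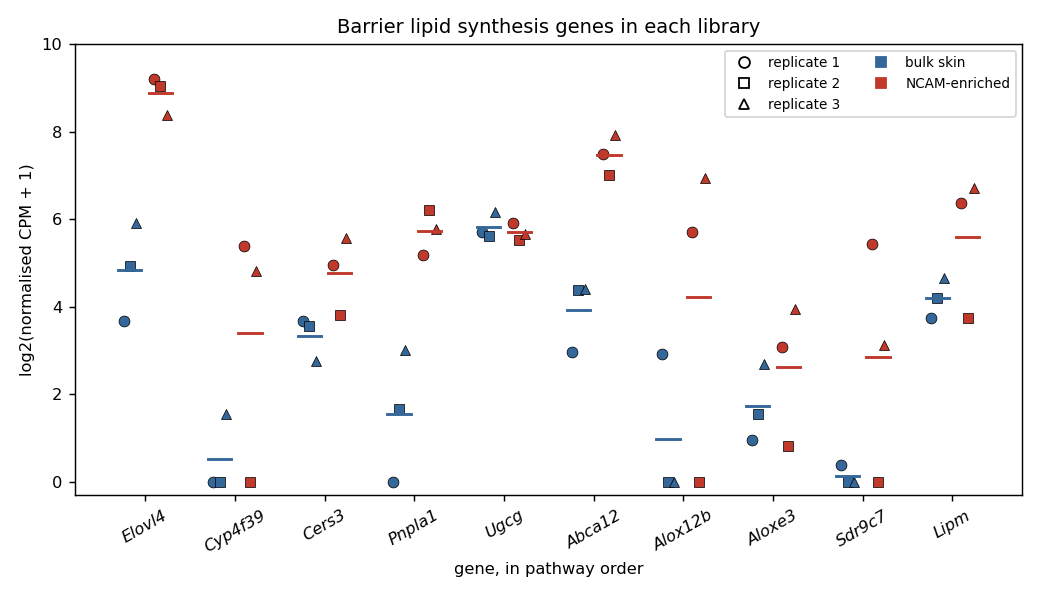
Each point is 1 library's level of 1 gene, as log2 of CPM plus 1, with genes along the x axis in pathway order, marker shapes for the replicate number and horizontal lines for the group means. Elovl4 and Abca12 show wide gaps between the groups, Ugcg lies at one level in both, and the points for NCAM-enriched replicate 2 sit at 0 in Cyp4f39, Alox12b and Sdr9c7.

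Fatty acid elongation and hydroxylation open the route. Elovl4, the elongase that makes the ultra-long fatty acids of barrier ceramides, lies on chr9:83778692-83806277 (minus strand, GRCm38, GENCODE M21). Its level was 586, 522 and 334 CPM in the NCAM-enriched libraries and 11.8, 29.6 and 59.2 CPM in bulk skin. The lowest NCAM-enriched library stood well above the highest bulk skin library, and the bulk skin libraries themselves spread widely. The log2 fold change was 3.84 ± 0.62 (SE, 95% interval 2.43 to 5.24, n = 3 and 3, edgeR adjusted p = 0.0205). The gene stayed past the threshold without any 1 NCAM-enriched library, but not without bulk skin replicate 1 (edgeR adjusted p = 0.105), 2 (0.153) or 3 (0.0651), where the log2 fold changes were 3.38, 3.69 and 4.46.

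Cyp4f39, a cytochrome P450 that hydroxylates the far end of ultra-long fatty acids, lies on chr17:32452723-32493320 (plus strand). It had 40.9, 0 and 27.0 CPM in the NCAM-enriched libraries and 0, 0 and 1.92 CPM in bulk skin. NCAM-enriched replicates 1 and 3 were above all of bulk skin, while replicate 2 had no read, where a count of 0 allows up to 2.32 CPM. Summed over the groups there were 172 counts against 7, a pooled ratio of 42.2 with a 95% counting interval of 20.0 to 106. With no filter on low counts its adjusted p in edgeR was 0.0371. It also had enough counts to be tested without NCAM-enriched replicate 2 (edgeR adjusted p = 0.0516) and without bulk skin replicate 1 (0.489), 2 (0.451) or 3 (0.280), and passed in none of these.

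Ceramide assembly came next. Cers3, the ceramide synthase that takes ultra-long acyl groups, lies on chr7:66743504-66823691 (plus strand). It stood at 29.8, 13.1 and 46.5 CPM in the NCAM-enriched libraries and 11.8, 10.8 and 5.76 CPM in bulk skin. The groups did not overlap, yet NCAM-enriched replicate 2 was only just above bulk skin replicate 1. The log2 fold change was 1.66 ± 0.83 (SE, 95% interval -0.23 to 3.55), and the gene did not pass the test (edgeR adjusted p = 0.330).

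Pnpla1, the transacylase that puts linoleic acid on the hydroxylated ceramide, lies on chr17:28858411-28890309 (plus strand). Its level was 35.1, 73.4 and 53.3 CPM in the NCAM-enriched libraries and 0, 2.16 and 7.13 CPM in bulk skin. Unlike Cyp4f39, it was highest in NCAM-enriched replicate 2, and the groups were far apart. The log2 fold change was 4.10 ± 1.23 (SE, 95% interval 1.30 to 6.90) with an adjusted p of 0.107 in edgeR, 0.00279 in DESeq2 and 0.0220 in limma-voom, so that the call turns on the tool. An antisense gene, Pnpla1os, shares 13.3% of its exonic bases and had 0 counts in every library.

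Ugcg, which makes glucosylceramide from ceramide in nearly all cells, lies on chr4:59189257-59222833 (plus strand). It stood at 59.5, 44.8 and 49.7 CPM in the NCAM-enriched libraries and 50.9, 47.8 and 70.7 CPM in bulk skin. The groups lay within one range, and the log2 fold change was -0.14 ± 0.45 (SE, edgeR adjusted p = 0.915). Its 95% interval ran from -1.16 to 0.88.

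Lamellar body loading was represented by Abca12, the lipid transporter of that organelle, on chr1:71242276-71414910 (minus strand). Its level was 180, 128 and 240 CPM in the NCAM-enriched libraries and 6.83, 19.9 and 20.3 CPM in bulk skin. All 3 NCAM-enriched libraries were high, and none came near the bulk skin values. The log2 fold change was 3.54 ± 0.55 (SE, 95% interval 2.29 to 4.78, edgeR adjusted p = 0.0187). As with Elovl4, it stayed past the threshold without any 1 NCAM-enriched library and not without bulk skin replicate 1 (edgeR adjusted p = 0.115), 2 (0.133) or 3 (0.130), where the log2 fold changes were 3.14, 3.70 and 3.72.

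**Figure D2:**
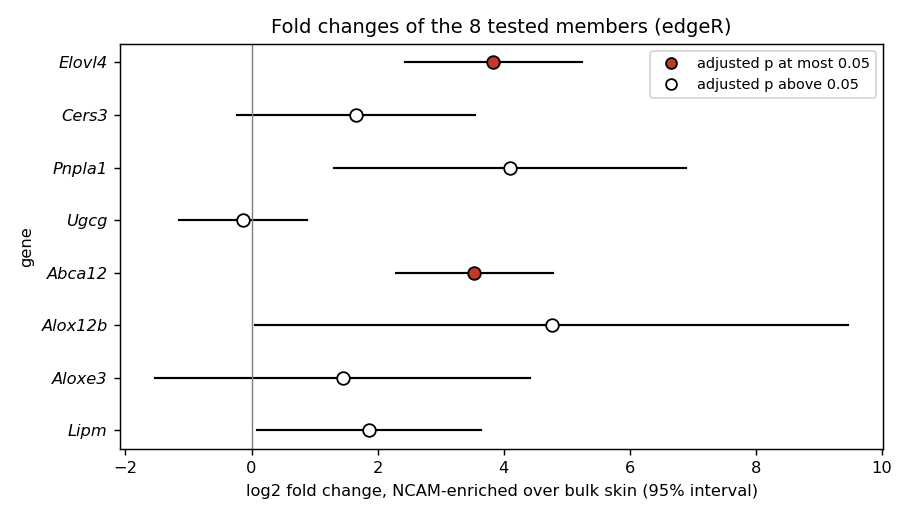
Points give the log2 fold change of NCAM-enriched over bulk skin for each of the 8 genes tested (x axis) and lines its 95% interval from edgeR, with filled points at an adjusted p of at most 0.05. Elovl4 at 3.84 and Abca12 at 3.54 have narrow intervals, while the point for Alox12b, at 4.76, is the farthest right and has the widest.

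The oxidation steps follow. Alox12b, the lipoxygenase that acts first on the linoleate of the acylceramide, lies on chr11:69156989-69169792 (plus strand). It had 51.0, 0 and 123 CPM in the NCAM-enriched libraries and 6.52, 0 and 0 CPM in bulk skin. Replicates 1 and 3 of the NCAM-enriched group were high, and replicate 2 had no read among its 1343190 counts. The log2 fold change was 4.76 ± 2.07 (SE, 95% interval 0.05 to 9.46) and missed the threshold (edgeR adjusted p = 0.258), whereas with no filter on low counts it passed (0.000158).

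Aloxe3, the lipoxygenase that converts the product of Alox12b, is its neighbour on chr11:69125896-69149115 (plus strand). It had 7.44, 0.773 and 14.5 CPM in the NCAM-enriched libraries and 0.931, 1.95 and 5.48 CPM in bulk skin. The 0.773 CPM of NCAM-enriched replicate 2 was a single read, and the groups overlapped. The log2 fold change of 1.45 ± 1.31 (SE) was not called (edgeR adjusted p = 0.619).

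Sdr9c7, the dehydrogenase that acts after the lipoxygenases, lies on chr10:127898518-127911761 (plus strand). It had 42.0, 0 and 7.66 CPM in the NCAM-enriched libraries and 0.310, 0 and 0 CPM in bulk skin. As for Alox12b, NCAM-enriched replicate 2 was the one without a read. The sums were 106 counts against 1, a pooled ratio of 182 with a 95% counting interval of 31.9 to 7249, and the gene was not tested for want of counts. With no filter on low counts the adjusted p in edgeR was 0.0253, and it was tested but not called without bulk skin replicate 1 (0.321), 2 (0.343) or 3 (0.346).

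Lipm, an acid lipase of the granular layer, lies on chr19:34100933-34122687 (plus strand). Its level was 81.3, 12.4 and 103 CPM in the NCAM-enriched libraries and 12.4, 17.5 and 24.1 CPM in bulk skin. NCAM-enriched replicate 2 was level with the lowest bulk skin library, and the log2 fold change of 1.87 ± 0.78 (SE) did not pass (edgeR adjusted p = 0.238). Its value is uncertain, since 34.9% of its exonic bases are shared with Ankrd22 on the other strand, and Smart-seq2 does not mark strand. Ankrd22 itself had 56.3, 34.0 and 56.8 CPM against 23.9, 23.1 and 31.0 CPM and was not called (log2 fold change 0.92, edgeR adjusted p = 0.423).

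NCAM-enriched replicate 2 was the lowest of its group for 8 of the 10, and 3 genes (Cyp4f39, Alox12b and Sdr9c7) had no read in it. It was also the library with the fewest counts. Without it, the quasi-likelihood test of edgeR called 4 members higher, where 3.09% of all genes were. Lipm (edgeR adjusted p = 0.0205) and Sdr9c7 (0.0234) were called besides Elovl4 and Abca12. The library left out was the lowest of its group for both Lipm and Sdr9c7. Sdr9c7 had enough counts there only through NCAM-enriched replicates 1 and 3, where it was high. These added calls therefore follow from the choice of library and are no support. Without bulk skin replicate 1, 2 or 3 edgeR called 0 members, with 0, 0 and 1 called higher among all genes. At an unadjusted p under 0.05 it had 5, 3 and 4 members higher in these fits, where 7.43%, 7.65% and 7.75% of all genes were. DESeq2 called 3 members, where 5.06% of all genes were higher, and limma-voom called the same 3, where 2.67% were. These were Elovl4, Abca12 and Pnpla1. With no filter on low counts edgeR called 6, adding Pnpla1, Alox12b, Cyp4f39 and Sdr9c7, where 2.76% of all genes were higher.

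**Figure D3:**
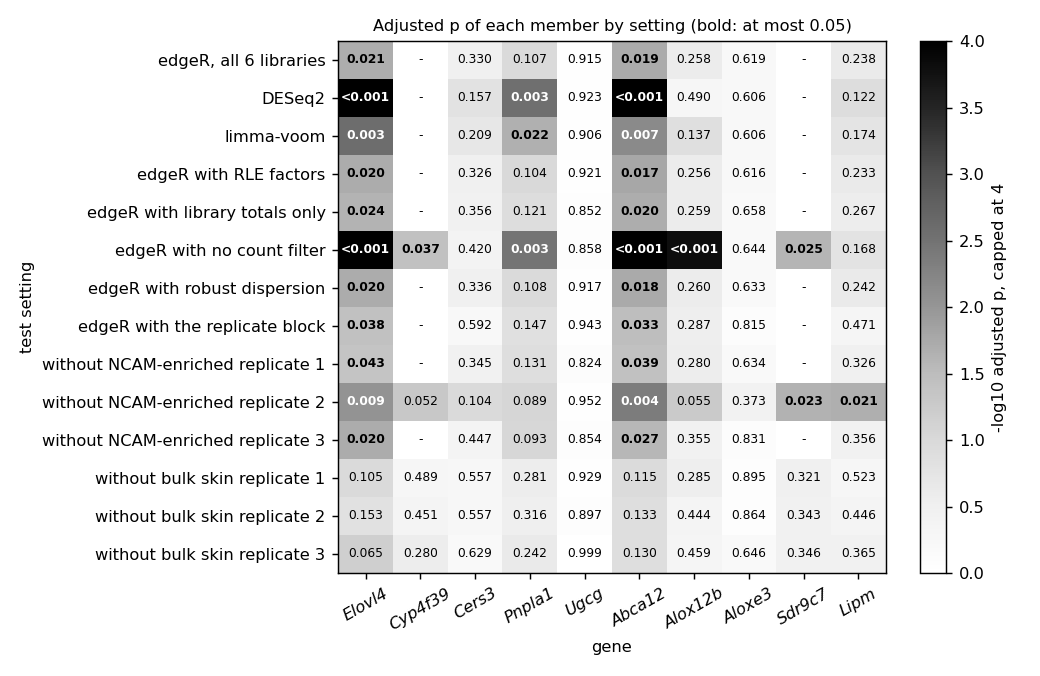
Each cell gives the adjusted p of 1 gene (columns) under 1 test setting (lines of the grid), shaded by -log10 and capped at 4, with values of at most 0.05 in bold and a dash where the gene was not tested. Elovl4 and Abca12 are bold under all settings but the 3 that leave out a bulk skin library, and Cers3, Ugcg and Aloxe3 are bold under none.

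Levels were set between genes only per kilobase of exonic length. In the NCAM-enriched libraries Elovl4 was first, at 159 ± 43.2 CPM per kilobase (SD, n = 3). Far below it came Alox12b (23.8 ± 25.3), Lipm (18.8 ± 13.6), Abca12 (12.3 ± 3.77), Pnpla1 (11.2 ± 3.96), Ugcg (9.85 ± 1.44), Cers3 (9.16 ± 5.13), Cyp4f39 (7.92 ± 7.28) and Sdr9c7 (5.45 ± 7.36), all in CPM per kilobase, and neighbours among these 8 lay within their spread. Aloxe3 was last at 1.18 ± 1.07 CPM per kilobase, which Sdr9c7 did not exceed beyond its own spread. In bulk skin Elovl4 (11.1 ± 7.92 CPM per kilobase) and Ugcg (10.8 ± 2.39) had the highest means and did not differ beyond their spread, followed by Lipm at 5.16 ± 1.68, Cers3 at 2.90 ± 0.995 and Abca12 at 1.06 ± 0.52. Ugcg was above Lipm by more than their spread, whereas Elovl4, with its wide spread, was not clear of Lipm or Cers3. Lipm and Cers3 lay within their spread, and Abca12 was below Cers3 by more than theirs. The other 5 were at 0.894 CPM per kilobase or less, and neighbours among Abca12 and these 5 lay within their spread.

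The makeup of the sum changed with these levels. The 10 genes together had 1112, 794 and 998 CPM in the NCAM-enriched libraries and 102, 130 and 195 CPM in bulk skin, a ratio of the group means of 6.82. Without Elovl4 the ratio was 4.50. Elovl4 made up 52.7%, 65.7% and 33.5% of the sum in the NCAM-enriched libraries against 11.6%, 22.8% and 30.4% in bulk skin. Ugcg held 5.35%, 5.64% and 4.97% against 50.2%, 36.8% and 36.3%, as shares of reads, which also depend on gene length.

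The sums of spinous and granular keratinocyte markers were higher along with the members, while the basal sums of the groups overlapped. The 8 spinous layer markers, such as Krt10 and Krt77, keratins of the suprabasal layers, summed to 14236 to 35355 CPM in the NCAM-enriched libraries and to 1552 to 1718 CPM in bulk skin, and 6 of 8 were called higher (edgeR). Of 10 granular layer markers, 8 were tested and 4 called higher (edgeR), Flg, Flg2, Ivl and Klk7, with sums of 5599, 556 and 4295 CPM against 104 to 212 CPM, and Flg, the filaggrin gene, was at 0 in all of bulk skin. The 7 basal layer markers gave 7580 to 31095 CPM against 12341 to 16552 CPM, and 0 were called in either direction by edgeR or DESeq2, with 0 at an unadjusted p under 0.05. Without bulk skin replicate 1, 2 or 3, edgeR called 0 spinous and 0 granular markers. Without NCAM-enriched replicate 1, 2 and 3 the spinous counts were 4, 7 and 7 and the granular counts 0, 7 and 4. In these last fits 60 of 14222, 444 of 14384 and 1099 of 14962 genes were called higher. The part of keratinocyte numbers in the members' values was not tested.

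NCAM-enriched replicate 2, in which the oxidation genes were at or near 0, was also the library with the lowest granular sum of its group, and its level of Lor, the loricrin gene, was 2.32 CPM against 1327 and 747 CPM in replicates 1 and 3. It stood apart in fibroblast markers as well, with a sum of 32932 CPM against 361 and 41.4 CPM in the other 2 libraries of its group and 10319 to 18167 CPM in bulk skin. Its Elovl4 and Pnpla1 levels were not low. Per spinous sum, the members came to 3.15%, 5.58% and 5.50% in the NCAM-enriched libraries and 6.54%, 7.55% and 11.3% in bulk skin, with every NCAM-enriched library below every bulk skin library. Per basal sum the order was the opposite, at 11.2%, 10.5% and 3.21% against 0.613%, 0.895% and 1.58%. Per granular sum the groups overlapped, at 19.9%, 143% and 23.2% against 97.9%, 61.1% and 114%.

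Merkel markers were higher in the NCAM-enriched libraries, with other cells present. Their sum was 1529, 1602 and 451 CPM against 132 to 176 CPM, and 5 of 9 were called higher (edgeR), among them Krt20 (log2 fold change 3.21, edgeR adjusted p = 0.0196). The ratio of the mean sums was 7.89 for the Merkel markers, below the 13.6 of the spinous and the 21.4 of the granular markers. None of the 9 Merkel markers was at 0 across a group. Without bulk skin replicate 1, 2 or 3 edgeR called 0 Merkel markers, and without NCAM-enriched replicate 1, 2 and 3 it called 2, 6 and 9. Calls over all genes moved too, with 60, 444 and 1099 higher without NCAM-enriched replicate 1, 2 and 3. The T cell list fell, with 5 of 6 markers called lower (edgeR) and sums of 5.85 to 168 CPM against 3018 to 3261 CPM, and all 6 Langerhans cell markers were lower, at 24.7 to 332 CPM against 9963 to 16983 CPM, of which 3 were still called without NCAM-enriched replicate 1 and 1, 2 and 2 without bulk skin replicate 1, 2 and 3. Sebocyte markers, from the other lipid-making cells of skin, summed to 266 to 712 CPM against 489 to 634 CPM, and edgeR called 0 of 7 tested (3 higher and 1 lower at an unadjusted p under 0.05) while DESeq2 called 2 higher and 1 lower. Of 7 hair follicle markers edgeR called Krt17 higher and Lgr6 lower. Their sum was 12242, 6232 and 28861 CPM against 2043 to 2735 CPM, without overlap, while their median log2 fold change was -0.11. Krt79, another of the 7, had a log2 fold change of 3.24 (edgeR adjusted p = 0.0691, DESeq2 0.000197). Of 4 melanocyte markers 0 could be tested. For fibroblast markers, edgeR and DESeq2 called 0 of 5 (1 lower at an unadjusted p under 0.05), while limma-voom called 3 lower, as did edgeR with no count filter (Col3a1, Dcn and Lum).

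**Figure D4:**
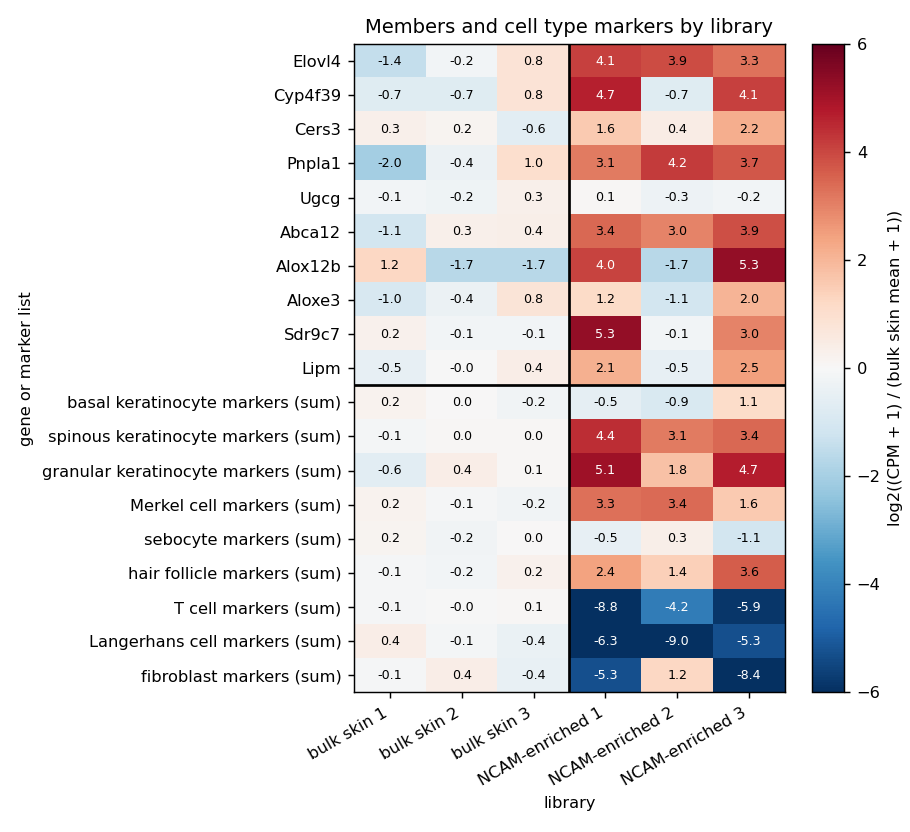
Colours and printed values give log2 of (CPM + 1) over (bulk skin mean + 1) for each of the 10 genes and for the summed CPM of each marker list except melanocytes (y axis) in each library (x axis), with red for above and blue for below the bulk skin mean and colours capped at 6. NCAM-enriched replicate 2 parts from its group in Alox12b, Sdr9c7, Cyp4f39, Lipm and the granular and fibroblast sums, but not in Elovl4 or Pnpla1.

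The rest of the pathway was read from a list of 47 further genes, of which 46 were found and 42 tested, and Sts was not analysed here. The quasi-likelihood test of edgeR called 2 of the 42 higher and 0 lower (10 higher and 3 lower at an unadjusted p under 0.05), and 24 had fold changes above 0, with a median log2 value of 0.46. Over all genes tested, edgeR called 1.04% higher and 1.55% lower, and 8.73% were higher at that unadjusted threshold. DESeq2 called 8 of the pathway genes higher, where 5.06% of all genes were, and limma-voom 4, where 2.67% were. Both called 0 of the pathway genes lower. Both genes called by edgeR activate or esterify acyl groups. Slc27a4, a fatty acid transporter and acyl-CoA synthetase, had 126, 362 and 168 CPM in the NCAM-enriched libraries and 36.3, 44.1 and 22.5 CPM in bulk skin (log2 fold change 2.67, edgeR adjusted p = 0.0368). Dgat2, which makes triacylglycerol, had 633, 146 and 663 CPM against 45.6, 83.2 and 75.9 CPM (log2 fold change 2.82, edgeR adjusted p = 0.0481). For both, every NCAM-enriched library was above every bulk skin library. Neither was called by edgeR without bulk skin replicate 1, 2 or 3 (adjusted p from 0.176 to 0.238 for Slc27a4 and from 0.212 to 0.282 for Dgat2), nor was Dgat2 without NCAM-enriched replicate 1 (0.0965).

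By step, acyl activation and omega-esterification had 2 of 5 genes called and a median log2 fold change of 2.59. Fatty acid elongation (10 tested, median 0.26), sphingoid base and ceramide synthesis (12 tested, median -0.44), lamellar body transport and ceramide processing (9 tested, median 0.43), the lipoxygenase branch with envelope attachment (4 tested, median 2.35) and lipases with cholesterol sulphate (2 tested, median 0.65) had 0 called in edgeR. In these 5 steps the counts higher at an unadjusted p under 0.05 in edgeR were 1, 2, 1, 2 and 1, and DESeq2 called 1, 2, 1, 0 and 1 higher. Cers3 belongs to the step whose other genes had the lowest median. Among the elongases, edgeR called Elovl4 alone with all 6 libraries. Elovl6, which lengthens shorter chains and is named here after its values were seen, had 516, 591 and 258 CPM in the NCAM-enriched libraries and 30.1, 138 and 96.2 CPM in bulk skin, without overlap (log2 fold change 2.37, edgeR adjusted p = 0.0697). It was called by DESeq2 (adjusted p = 0.00322), by limma-voom (0.0165), and by edgeR with no count filter (0.00047) or without NCAM-enriched replicate 3 (0.0404), and edgeR called Elovl1 without NCAM-enriched replicate 2 (0.00993).

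**Figure D5:**
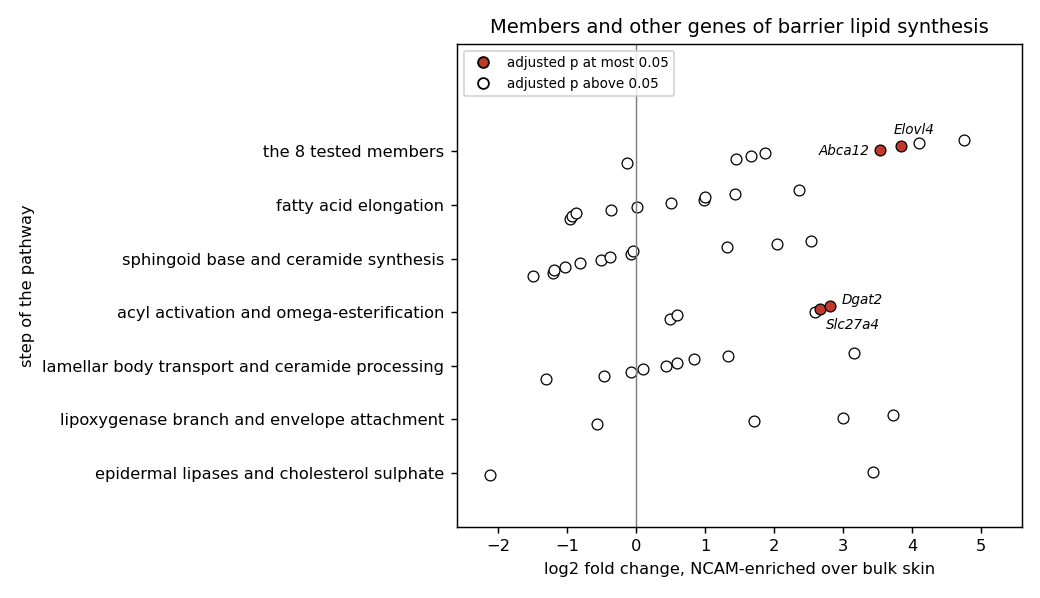
Each point is the log2 fold change of 1 tested gene, NCAM-enriched over bulk skin (x axis), with the 8 members in the top line and the 42 other pathway genes below by step (y axis), filled where the adjusted p in edgeR was at most 0.05. The filled points are Elovl4, Abca12, Slc27a4 and Dgat2, and the ceramide synthesis line lies mostly left of 0.

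In each step, the gene with the highest CPM among those that edgeR did not call shows the range, a rank by reads that also depends on gene length. Tecr, the last enzyme of the elongation cycle, which any elongase needs, was at 480, 314 and 676 CPM in the NCAM-enriched libraries and 1058, 844 and 968 CPM in bulk skin (log2 fold change -0.96, edgeR adjusted p = 0.238). All of its NCAM-enriched libraries lay below bulk skin, the opposite order to Elovl4, though the difference did not pass. Cers4, another ceramide synthase, had a log2 fold change of 2.05 (edgeR adjusted p = 0.106, DESeq2 0.0212), Pnpla2, the adipose triglyceride lipase, 0.49 (0.712), Psap, the precursor of sphingolipid activator proteins, -0.08 (0.940), and Sult2b1, which makes cholesterol sulphate, 3.43 (0.120, DESeq2 0.0102). Alox12e, an epidermal lipoxygenase, was at 136, 868 and 1702 CPM against 265, 230 and 336 CPM (log2 fold change 1.71, edgeR adjusted p = 0.259), so that NCAM-enriched replicate 2 was high in it while Alox12b had no read.

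Family relatives of the members numbered 55, of which 32 were tested. The quasi-likelihood test of edgeR called 0 higher (6 at an unadjusted p under 0.05, and 4 by DESeq2 and 1 by limma-voom after adjustment) and 1 lower, Alox5, the leukocyte lipoxygenase. Over all genes, edgeR called 1.04% higher and 1.55% lower, and 8.73% were higher at that unadjusted threshold. DESeq2 called 5.06% and limma-voom 2.67% of all genes higher. Alox5 had 2 counts over the NCAM-enriched libraries and 789 over bulk skin, a pooled ratio of 0.00435 with a 95% counting interval of 0.000526 to 0.0158 (edgeR adjusted p = 0.0178). It moved with the T cell and Langerhans cell sums given above, whose part in it was not tested. Without bulk skin replicate 1 (edgeR adjusted p = 0.178), 2 (0.133) or 3 (0.111) it was not called.

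Per length, ranked by the mean over both groups, the leading relatives were often as abundant as the members. Alox12e had 319 ± 277 CPM per kilobase (SD, n = 3) in the NCAM-enriched libraries and 97.9 ± 19.1 in bulk skin. It was above Alox12b in bulk skin, while in the NCAM-enriched libraries its higher mean lay within the wide spread. Elovl1, an elongase of very long chains, had 168 ± 133 CPM per kilobase against 62.0 ± 10.7, so that it was level with Elovl4 within the spread in the NCAM-enriched libraries and above it in bulk skin. Cers2, the widely expressed ceramide synthase, had 16.4 ± 9.10 CPM per kilobase against 37.9 ± 2.38, and Cers3 was below it in bulk skin. In the other families the leading relatives were Pnpla2 (21.3 ± 13.4 against 15.1 ± 3.64 CPM per kilobase), Abca7 (17.7 ± 7.36 against 5.31 ± 1.65), Cyp4f16 (7.08 ± 10.7 against 4.97 ± 0.08), Lipa (0.887 ± 0.900 against 5.88 ± 1.91) and Rdh1 (8.24 ± 8.23 against 0.926 ± 1.04). In the NCAM-enriched libraries alone Cers4 (31.4 ± 28.4 CPM per kilobase) had a higher mean than Cers2, within the spread. Lipo3 (2.82 ± 2.71 CPM per kilobase) likewise had a higher mean than Lipa, within the spread. In bulk skin alone Abca1 (6.31 ± 3.15 CPM per kilobase), Cyp4f13 (6.72 ± 0.511) and Rdh5 (0.941 ± 0.924) had the highest means of their families. Of these, Cyp4f13 alone was above the leading relative by more than the spread. None of these 8 leading relatives passed the test in edgeR with the count filter and all 6 libraries, and DESeq2 called Abca7 (adjusted p = 0.0152) among them. With no filter on low counts edgeR called Alox12e (adjusted p = 0.0146), and without NCAM-enriched replicate 2 it called Elovl1 (0.00993).

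The mean profile of the 8 tested genes, centred on the log2 scale, was 1.52, 0.06 and 1.90 in the NCAM-enriched libraries and -1.51, -1.22 and -0.76 in bulk skin. The genes nearest to it by root mean square difference over the 6 libraries were Trim2 (0.218), Pdzk1ip1 (0.230), Llgl2 (0.246), Hr (0.251) and Krt80 (0.265), the last a keratin and Hr the hairless gene of the hair cycle. These 5 were picked as the nearest among all tested genes outside the members, so that they lay nearer than any member is no result. Among the members Lipm (0.601), Cers3 (0.675) and Abca12 (0.767) came nearest and Alox12b (2.01) was farthest. The mean profile is higher in the NCAM-enriched libraries, so a difference between the groups in these 5 genes follows from the choice. Their adjusted p values describe them and are no separate test. Trim2 had 335, 163 and 363 CPM against 42.2, 59.7 and 77.0 CPM (log2 fold change 2.27, edgeR adjusted p = 0.0375). The other 4 did not pass in edgeR (0.0551 to 0.0753) but were called by DESeq2 and limma-voom. Trim2 was not called by edgeR without NCAM-enriched replicate 1 (adjusted p = 0.0803) or without bulk skin replicate 1, 2 or 3 (0.192 to 0.270).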

How the data were processed

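Smart-seq2 libraries were made from 3 NCAM-enriched and 3 bulk skin samples, grouped by the labels. The deposited values are raw counts per gene, which the authors made by trimming with bbduk, removing abundant sequences with bbmap, aligning to GRCm38 with STAR and counting with featureCounts. No source used here gives the annotation release or the strand setting. Positions and exonic lengths came from GENCODE M21, in which 54495 of 54532 gene IDs were found and 37 were not.

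Library totals ran from 1343190 to 4481830 counts, so that 1 count was 0.216 to 0.773 CPM. No molecular identifiers were used and reads can be PCR copies, so the intervals (95%, exact) and the limit for a count of 0 (3 counts per library) cover counting error only. No source says that replicates came from separate animals, and p-values then measure only the spread between these libraries, which may be technical.

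The comparison used the quasi-likelihood F-test of edgeR 4.0.16 under R 4.3.3 (non-robust, TMM factors, filterByExpr) and Benjamini-Hochberg adjustment over all 13157 genes, called at 0.05. CPM are counts scaled by TMM-adjusted library size. The SE is the fitted log2 fold change over the square root of F. DESeq2 1.42.0, limma-voom 3.58.1, RLE factors, library totals only, no filter (at least 1 count), a replicate block, robust dispersion and leaving out each library were alternatives. A pseudocount of 1 CPM was used for plots and profiles. The code was tested on simulated counts.

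Named besides the members were pathway genes called by edgeR, the gene with the highest CPM not called in each step, the most abundant tested relative per length in each family, the 5 genes nearest to the members' mean profile (model names such as Gm or Rik left out) and genes overlapping a member. Alox5, Elovl6 and Elovl1 (as a call), Cers4 and Lipo3 (as relatives), Abca1, Cyp4f13, Rdh5 and the marker genes were named after their values were seen. The members and lists were chosen with earlier results of these data known. Promoter sequences came from RefSeq.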

Additional observations from a re-analysis of the deposited data

How the results depend on the processing

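Under 13 alternatives, 92 of 104 values of the tested members kept their direction and side of the threshold, 5 passed it and 6 fell short of it. Ugcg changed sign, ranging from -0.30 to 0.0022 with 1 library left out. Most of the 104 values belong to members not called with all 6 libraries, which mostly stayed not called. Elovl4 and Abca12 were each called in 10 of the 13. The 6 values that fell short were theirs, in the fits without a bulk skin library. The median log2 fold change of the members stayed above 0 in all 13 alternatives. Members called higher numbered 6 with no count filter and 0 to 4 with 1 library left out. Over all genes, calls higher and lower were 661 and 928 by DESeq2, 351 and 849 by limma-voom, 769 and 741 with no count filter, and 0 to 1099 and 13 to 733 with 1 library left out (edgeR, with 0, 0 and 1 higher without bulk skin replicates 1, 2 and 3, where 2115, 2237 and 2178 genes had an unadjusted p under 0.05). Other pathway genes called higher were 8 by DESeq2, 4 by limma-voom, 9 with no count filter and 0 to 9 with 1 library left out, and 1 was called lower with no count filter. Relatives called higher were 4 by DESeq2, 1 by limma-voom, 3 with no count filter and 0 to 3 with 1 library left out, and those called lower were 2 by each of these 3 settings and 0 to 3. The counts for relatives were added after seeing the data. The cause was not tested.

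Replicates of the same number did not deviate together (r = 0.0231, 0.000232 and -0.00776), so the numbers were not taken as pairs. With the replicate block, edgeR called 50 genes higher and 92 lower, 0 other pathway genes higher, and 2 members, Elovl4 (adjusted p = 0.0379) and Abca12 (0.0330). The median over all genes was -0.07, and -0.37 by limma-voom, -0.36 with the block, -0.15 by library totals and 0.08 with no count filter. Cyp4f39, Sdr9c7, Alox12b, Aloxe3 and Pnpla1 each had 0 or 1 count in at least 1 library, where a count of 0 allowed 0.649 to 2.32 CPM.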
